A study of Rattus norvegicus with 12 samples.

Results

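Local steroid metabolism enzymes are the proteins with which a tissue makes, activates or breaks down the steroid hormones that reach it, and 10 of them were looked up in the rat cervix by gene name: Srd5a1, Srd5a2, Akr1c14, Hsd11b1, Hsd11b2, Hsd17b2, Hsd17b4, Cyp19a1, Sult1e1 and Sts. By the gene names in the scanner files 8 of the 10 had a probe, among 26572 gene names on the array. Cyp19a1 and Sult1e1 stand in those files under older names (M33986 and ste2) and were found through another accession listed for their probes.

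The cervix came from Sprague Dawley rats, with 1 rat on each of 12 one-colour arrays and 3 rats in each of 4 groups. Nonpregnant (NP) rats were in proestrus, and D21 rats were at day 21 after breeding, the day before birth was due. All rats were perfused with saline and the cervix was dispersed with collagenase. Whole groups are these dispersed cells frozen at once, and macrophage (Mφ)-depleted groups are the cells left after the Mφ-specific antibody ED1, whose antigen is Cd68, and magnetic beads had removed those that bound it. Whole cells thus did not pass through the antibody and bead steps, and whole and depleted samples came from different rats, so depletion and handling cannot be told apart in the comparison of whole with depleted cells.

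In rodents the cervix can reduce progesterone on the spot. A 5α-reductase (Srd5a1 or Srd5a2) takes progesterone to 5α-dihydroprogesterone, and a 3α-hydroxysteroid dehydrogenase, which in the rat is Akr1c14, takes that product on to allopregnanolone. The same pair acts on testosterone and dihydrotestosterone. Hsd11b1 regenerates active glucocorticoid from its inert 11-keto form and Hsd11b2 does the reverse, which shields the mineralocorticoid receptor. Hsd17b2 and Hsd17b4 oxidise estradiol to estrone, Cyp19a1 is aromatase, which makes estrogens from androgens, and Sult1e1 and Sts add and remove the sulfate group that silences estrogens. Loss of local progesterone activity is held to be a step in cervical ripening.

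Each gene was read by a DNA probe of 60 bases. A stretch of 30 bases from each probe behind the 4 genes on which the results turn is printed here to show what was hybridised (bases 16 to 45, and for Hsd11b1 bases 19 to 48, which centre the signal), with the polyadenylation signal AATAAA, which 8.39% of all probes contain, in capitals. Probe positions are those of the array design on the rat genome build rn4. The Hsd11b1 probe, which holds the signal, lies at chr13:109063624-109063683 on the minus strand, the Akr1c14 probe at chr17:77317088-77317147 on the minus strand and the Hsd11b2 probe at chr19:35341413-35341472 on the plus strand. Srd5a1 has 2 probes on the plus strand, at chr17:3878645-3878704 and, for the dimmer one, at chr17:3854451-3854510. Exon or intron positions in rn4 were not used here.
Akr1c14: tcgaggttattgattagtcaatattcccca
Hsd11b1: aaatgtaattgtAATAAAtgtcacaaacca
Hsd11b2: gtccagagtaaatccctcttgactggctca
Srd5a1, brighter probe: gtctagatttgacccagaaaacttcatgac
Srd5a1, dimmer probe: cagagcagatacttgagccagtttgcggtt

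The 250 bases before the start of Srd5a1 and of Akr1c14 are shown because these enzymes act one after the other on progesterone and their transcripts differed in opposite directions between whole and depleted cells of NP rats. The sequences are from RefSeq on the build GRCr8, at chr1:35514664-35514913 on the plus strand for Srd5a1 and at chr17:71083185-71083434 on the minus strand for Akr1c14. The array design places the Srd5a1 probes on chr17 of the older build rn4, and positions were not converted between the builds. Capitals mark GC boxes (GGGCGG or its complement CCGCCC, searched on both strands), which occur in 30.5% of 33469 promoters of this length. Srd5a1 held 6 such boxes with 66.4% G and C, and Akr1c14 held none with 40.4% G and C, against a median of 51.2% over all promoters. Neither window held the steroid hormone half-site AGAACA (or TGTTCT), found in 17.5% of promoters, or TATAAA, found in 8.06%. A promoter was given for 6 of the 10 enzymes, of which Sts held 4 GC boxes, Srd5a2 and Hsd17b4 held 2 each and Sult1e1 held none. These matches describe the letters only.
Srd5a1: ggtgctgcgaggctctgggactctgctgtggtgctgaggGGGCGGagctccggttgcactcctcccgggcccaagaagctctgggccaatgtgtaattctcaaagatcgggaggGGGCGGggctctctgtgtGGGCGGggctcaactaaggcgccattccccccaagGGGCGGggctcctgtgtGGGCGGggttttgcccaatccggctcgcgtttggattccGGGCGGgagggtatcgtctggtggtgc
Akr1c14: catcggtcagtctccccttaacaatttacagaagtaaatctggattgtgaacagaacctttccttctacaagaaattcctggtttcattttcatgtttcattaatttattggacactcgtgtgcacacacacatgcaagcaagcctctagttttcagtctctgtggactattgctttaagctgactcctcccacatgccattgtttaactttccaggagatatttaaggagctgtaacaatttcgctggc

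Between 44.9% and 61.8% of probes were well above background on each array. Rats of a group correlated at 0.91 to 0.985 over the genes well above background in all rats of at least 1 group. Levels are log2 signal with each array's own 75th percentile set to 0, and they compare rats for 1 probe, never 1 gene with another. Of the 10 enzymes, 6 (Srd5a1, Akr1c14, Hsd11b1, Hsd11b2, Hsd17b4 and Sts) were well above background in all rats of at least 1 group in every comparison and were tested. Differences are log2 differences from limma, fitted to all genes and all 12 arrays, with the standard error (SE), and a gene is called where its Benjamini-Hochberg adjusted p over all genes tested is under 0.05. There were 4 slides and 3 scan days. All 6 whole samples were scanned on day 3, on slides 1 and 2, together with 1 depleted sample of each state, and rat 1 of the D21 Mφ-depleted group was alone on its slide and day.

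The cell mix is set out first because it touches every comparison of whole with depleted cells. The summed level of 10 Mφ markers was 5.67 to 5.78 in D21 whole and 2.19 to 2.30 in D21 Mφ-depleted rats, and 5.33 to 5.47 in NP whole and 0.33 to 0.94 in NP Mφ-depleted rats. The summed level of 10 fibroblast markers was 8.80 to 9.37, 8.32 to 8.89, 9.13 to 9.40 and 4.12 to 5.92 in the same order. It was 8.19 to 8.64, 5.48 to 7.32, 8.76 to 9.42 and 4.42 to 4.84 for 10 smooth muscle markers and 8.03 to 8.68, 9.09 to 9.56, 7.07 to 8.65 and 8.98 to 9.89 for 10 epithelial markers. Fibroblast and smooth muscle markers were thus lowest in NP Mφ-depleted cells, while the epithelial sum was higher in depleted than in whole cells of either state. Cd68, the antigen of the sorting antibody, did not follow the other Mφ markers. Its levels were 0.23, 1.32 and 0.68 in D21 whole and 1.04, -0.33 and 1.96 in D21 Mφ-depleted cells, and -0.01, -0.05 and 0.54 in NP whole and -1.68, 0.14 and 0.38 in NP Mφ-depleted cells. Whole and depleted groups overlapped in both states, with differences of -0.15 (SE 0.62, limma adjusted p = 0.882) in D21 and 0.54 (SE 0.62, adjusted p = 0.53) in NP, while 8 of 9 and 6 of 7 Mφ markers tested, all but Cd68, were higher in whole cells. None of 8 trophoblast and decidua markers was well above background on any array. In such mixed cells, fewer cells of a type and less RNA per cell cannot be told apart.

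Akr1c14, the 3α-reducing enzyme, was highest in whole cells and lowest in Mφ-depleted cells from NP rats. In D21 whole cervix its levels were 1.07, 0.85 and 0.85 in rats 5, 6 and 7, and in D21 Mφ-depleted cells -1.29, -0.61 and -0.61 in rats 1, 2 and 4. In NP whole cervix they were 2.28, 1.63 and 1.65 in rats 8, 9 and 10, and in NP Mφ-depleted cells -3.71, -3.44 and -2.68 in rats 5, 6 and 7, where the probe was well above background in 2 of 3 rats. The 4 groups did not overlap, in the order NP whole, D21 whole, D21 Mφ-depleted and NP Mφ-depleted.

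Hsd11b1, which regenerates active glucocorticoid, followed a similar order but with more spread. Its probe had 1 spot per array, while the Akr1c14 probe had 10 that were averaged, and the part of this in the spread was not tested. The levels of Hsd11b1 were 0.45, -0.54 and -0.71 in D21 whole, and -3.72, -2.26 and -1.51 in D21 Mφ-depleted cells. They were -1.17, 0.02 and 0.11 in NP whole cells and -5.68, -6.35 and -4.99 in NP Mφ-depleted cells, where no rat's signal was well above background. Both whole groups overlapped and lay above the D21 Mφ-depleted group, which lay above the NP Mφ-depleted group. Hsd11b2, the opposing enzyme, was 4.50, 4.60 and 4.28 in D21 whole, 4.28, 4.54 and 3.37 in D21 Mφ-depleted and 4.59, 4.31 and 4.42 in NP whole cells. In NP Mφ-depleted cells it was 0.49, 1.05 and 0.65, below all 9 other rats. Its probe was well above background in all 12 rats, and only the NP Mφ-depleted group was set apart.

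Srd5a1, the type 1 5α-reductase that starts progesterone reduction, took a different course. Its levels were -0.85, -0.86 and -1.30 in D21 whole, -1.16, -1.50 and -0.31 in D21 Mφ-depleted and -0.63, -0.21 and -0.81 in NP Mφ-depleted cells. In NP whole cells they were -3.38, -1.49 and -2.53, with rat 8 not well above background. NP whole cells were lowest, and their rat 9 was level with rat 2 of the D21 Mφ-depleted group. The dimmer Srd5a1 probe gave -1.79, -1.80 and -2.22 in D21 whole, -2.50, -2.41 and -1.98 in D21 Mφ-depleted, -3.69, -2.71 and -4.08 in NP whole and -1.95, -1.95 and -2.52 in NP Mφ-depleted cells. By that probe the NP whole group lay below every other rat.

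Hsd17b4, a peroxisomal enzyme that also breaks down fatty acids, overlapped across the groups. It ran from 1.03 to 1.17 in D21 whole, 1.10 to 1.73 in D21 Mφ-depleted, 1.10 to 1.63 in NP whole and 0.93 to 1.11 in NP Mφ-depleted cells. Sts, the sulfatase, ran from -2.13 to -1.38, -2.54 to -1.81, -3.47 to -1.51 and -2.88 to -2.09 in the same order, and its groups overlapped throughout. Hsd17b2 was well above background in 5 of 12 rats, with 1 in D21 whole, 2 in each depleted group and none in NP whole, and Sult1e1 in 1 rat of the NP whole group. Srd5a2 and Cyp19a1 were not well above background in any of the 12 rats. These 4 enzymes were not tested.

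**Figure D1:**
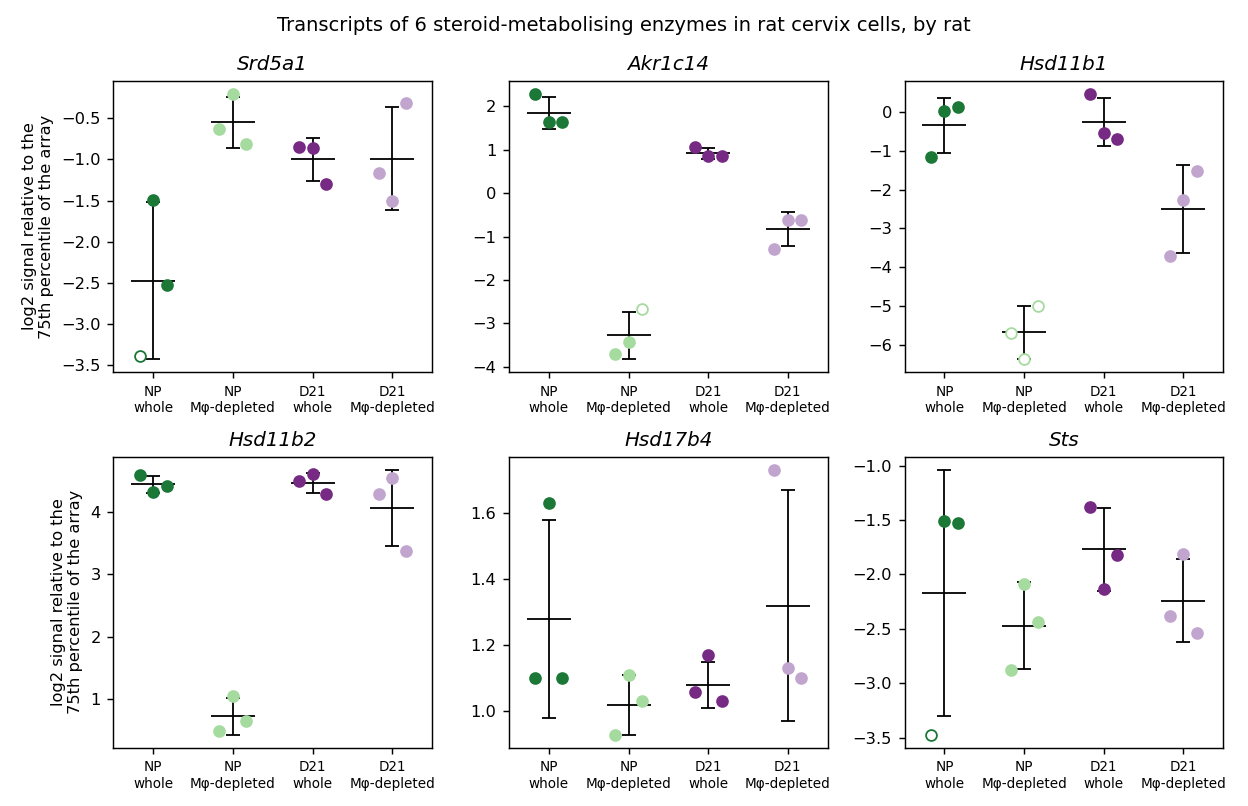
Levels of the 6 tested enzymes in each rat (1 point per rat, 3 per group), as log2 signal with the array's 75th percentile at 0, with the group mean (long bar) and SD (capped line) and open points where the probe was not well above background. Each panel has its own axis. Akr1c14, Hsd11b1 and Hsd11b2 were lowest in NP Mφ-depleted cells (means -3.28, -5.67 and 0.73), Srd5a1 was lowest in NP whole cells (mean -2.47), and Hsd17b4 and Sts overlapped across groups.

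The first comparison asked which transcripts differ in the whole cervix on the day before birth from those in the nonpregnant cervix. None of the 6 enzymes tested was called, against 5.86% of all 14048 genes, and their median difference was 0.05 against -0.08 over all genes. The enzymes of progesterone reduction had the largest differences, in opposite directions. Srd5a1 was higher in D21 by 1.47 (SE 0.45, 95% interval 0.49 to 2.45, 2.77-fold, limma adjusted p = 0.0794) and Akr1c14 lower, with a difference of -0.93 (SE 0.32, interval -1.62 to -0.23, 1.9-fold, adjusted p = 0.11). In both genes the groups of 3 rats did not overlap, as was so for 44.3% of all genes tested. Akr1c14 was called in limma on the whole-cell arrays alone (adjusted p = 0.0363) and with array weights (-0.98, adjusted p = 0.00737), as was Srd5a1 with array weights (1.63, adjusted p = 0.00283). The fit on the whole-cell arrays alone called 18.1% of all genes and the fit with array weights 31.6%. At an unadjusted p, limma gave 0.00704 for Srd5a1 and 0.0135 for Akr1c14.

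The dimmer Srd5a1 probe gave a larger value for the same difference, 1.56 (SE 0.35). In limma fitted to each probe on its own, adjusted over all probes tested, its adjusted p was 0.0266 and that of the brighter probe 0.081. The mean of both probes gave 1.51 with an adjusted p of 0.0389 in limma over genes. Without rat 9 of the NP whole group the difference of the brighter probe was 1.96 with an adjusted p of 0.0182. On slide 2, which held all 3 D21 whole rats and 1 NP whole rat, Srd5a1 differed by 1.53 and Akr1c14 by -0.72. Hsd11b1 and Hsd11b2 were nearly equal in the 2 states, with differences of 0.08 (interval -1.20 to 1.36) and 0.02 (interval -0.64 to 0.68). Hsd17b4 differed by -0.19 and Sts by 0.39, with limma adjusted p of 0.674 and 0.669. Beside these values, 7 of 10 epithelial markers were higher in D21 whole cells with a list median of 1.57. No fibroblast marker of 10 was called, with a median of -0.07, and 1 of 9 smooth muscle markers was lower with a median of -0.84. Their part in the enzymes' differences was not tested.

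The largest differences among the 6 enzymes lay between whole and Mφ-depleted cells of NP rats. Of the 6 tested, 3 were higher in whole cells and 1 was lower, against 32.8% of all genes called, and the median difference was 2.01 against -0.04 over all genes. Akr1c14 and Hsd11b1 were well above background in every rat only of the whole group, and Srd5a1 only of the depleted group. With genes well above background on every array compared, Hsd11b2 alone of these was tested and it stayed called, against 27.3% of all genes. Akr1c14 was higher in whole cells by 5.13 (SE 0.32, interval 4.44 to 5.82), a 35.0-fold difference with a limma adjusted p of 1.75e-06. Hsd11b2 was higher by 3.71 (SE 0.30, interval 3.06 to 4.37), 13.1-fold, with an adjusted p of 7.29e-06. Hsd11b1 was at least 16.8-fold higher in whole cells, since its signal in depleted cells was not well above background and only bounds the fold (adjusted p = 5.79e-05). With Hsd11b1 at that bound the median of the 6 stayed at 2.01. Every other Hsd11b1 value that involves NP Mφ-depleted cells is likewise a difference to a signal not above background, not a measured fold.

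Srd5a1 went the other way in these rats, with whole minus depleted at -1.92 (SE 0.45, interval -2.90 to -0.94), that is 3.78-fold higher after depletion (limma adjusted p = 0.00701). By its dimmer probe the difference was -1.35 (SE 0.34). Srd5a1 and Akr1c14, which act in succession on progesterone, thus differed in opposite directions between the same samples. Hsd17b4 and Sts differed by 0.25 and 0.30, with adjusted p of 0.44 and 0.663. On slide 1, with 2 whole and 1 depleted rat, the differences were 4.63 for Akr1c14, 3.81 for Hsd11b2 and -1.63 for Srd5a1. With slide as a block they were 4.89, 4.10 and -2.08, and the adjusted p of Srd5a1 rose to 0.0647. With normexp background correction Srd5a1 was at -1.04 with an adjusted p of 0.0575, and Hsd11b1 kept its call with one of 0.00812. Of all genes, 19% were called with slide as a block and 15.7% with normexp.

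The marker lists moved beside these enzymes. In NP rats 9 of 10 fibroblast markers and 9 of 9 smooth muscle markers were higher in whole cells, with list medians of 4.28 and 4.59, and 6 of 7 Mφ markers with a median of 6.59 (5.31 with the genes at background set to their bound). Of 10 epithelial markers 7 were lower in whole cells, with a median of -1.28. The differences of Akr1c14 and Hsd11b2 fall within the range of the fibroblast list (2.66 to 6.24). They fall equally within those of the smooth muscle (2.32 to 6.66) and Mφ (0.54 to 6.92) lists. That of Srd5a1 falls within the range of the epithelial list (-2.90 to 0.27) and of the immediate-early list (Atf3 at -5.27 to Ier3 at -0.19). The ranges thus single out no cell type. The part of the cell mix in the enzymes' differences was not tested.

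In D21 rats depletion went with smaller differences. Whole cells had more Akr1c14 by 1.76 (SE 0.32, interval 1.06 to 2.45, 3.38-fold, limma adjusted p = 0.00445) and more Hsd11b1 by 2.23 (SE 0.58, interval 0.95 to 3.51, 4.68-fold, adjusted p = 0.023). These were the 2 of 6 enzymes called, against 22.4% of all genes, and the median over the 6 was 0.44 against -0.06. Hsd11b2 differed by 0.40 (interval -0.26 to 1.06, adjusted p = 0.344), Srd5a1 by -0.01 (interval -0.99 to 0.97) and Hsd17b4 and Sts by -0.23 and 0.47, none of them called. Hsd11b2 was called with quantile normalization (0.77, adjusted p = 0.0387) and Hsd17b4 with array weights (-0.51, adjusted p = 0.0258). Those fits called 20.2% and 56.5% of all genes.

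Both D21 calls were lost with slide or scan day in the fit. Of all genes, 0.379% were called with slide and 6.21% with scan day, against 22.4% with neither. No slide held both D21 whole and D21 depleted rats, so a fit with slide as a block compares them only through the NP arrays. In that fit, where the block also takes up rat 1 of the depleted group, Akr1c14 was at 1.58 (adjusted p = 0.35). Akr1c14 and Hsd11b1 thus both lost their calls, Hsd11b1 at 0.48 with an adjusted p of 0.886. With scan day as a block they were at 1.27 (adjusted p = 0.055) and 1.16 (adjusted p = 0.205), and on day 3 alone, with 3 whole rats and 1 depleted rat, at 1.53 and 1.24. With normexp, which called 2.18% of all genes, they were at 1.22 (adjusted p = 0.0894) and 0.95 (adjusted p = 0.364). Leaving out rat 1 of the depleted group, the lowest for Hsd11b1, gave Hsd11b1 1.61 with an adjusted p of 0.0896. Its call was also lost without depleted rat 2 (2.35, adjusted p = 0.0585) and without whole rat 5 (1.87, adjusted p = 0.0864), 6 (2.36, 0.0576) or 7 (2.45, 0.0516). The fits that left out 1 of these rats called 7.74% to 9.27% of all genes. In D21 rats 4 of 10 fibroblast markers (median 1.43) and 6 of 9 smooth muscle markers (median 2.08) were higher in whole cells, and 4 of 10 epithelial markers were lower and 1 higher (median -0.69). Of 9 Mφ markers 8 were higher in whole cells (median 5.28, or 5.04 with the genes at background set to their bound).

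**Figure D2:**
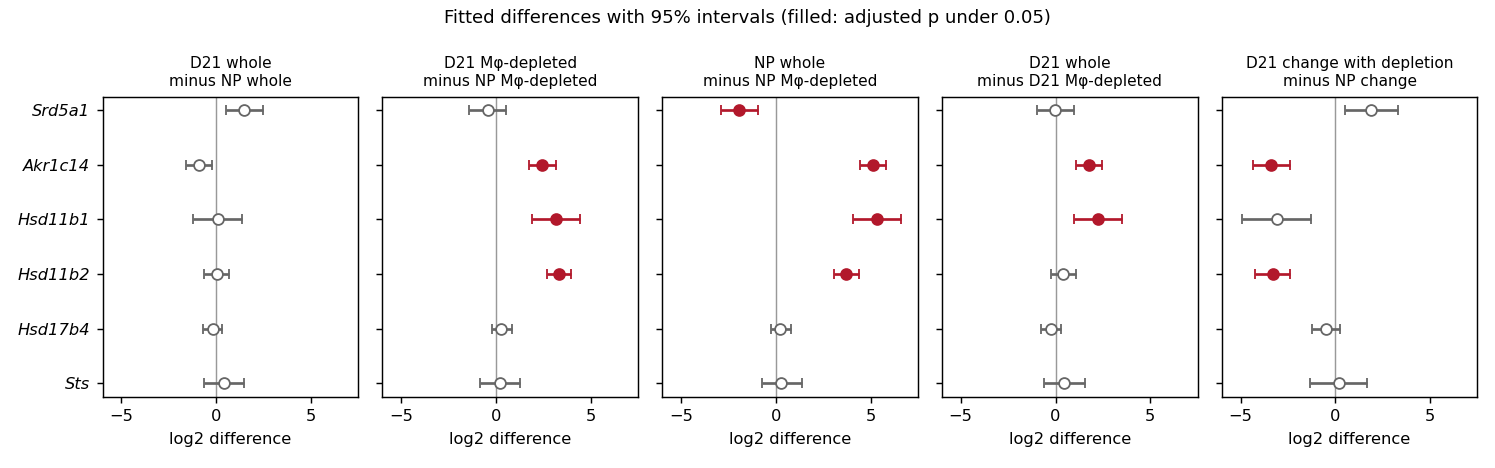
Log2 differences of the 6 tested enzymes in the 4 comparisons and their interaction, with 95% intervals from limma; filled points have an adjusted p under 0.05. Akr1c14 and Hsd11b2 differ by 5.13 and 3.71 between whole and Mφ-depleted NP cells, Hsd11b1 values that involve NP Mφ-depleted cells are set against signal not well above background, and no enzyme is filled between D21 whole and NP whole cells.

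Among Mφ-depleted cells, D21 rats had more of 3 of the 6 enzymes than NP rats, against 4.6% of all genes called, and the median difference was 1.37 (1.11 with Hsd11b1 at its bound) against 0.02. Of these 3, Akr1c14 and Hsd11b1 were well above background in every rat only of the D21 group. With genes well above background on every array compared, Hsd11b2 alone of the 3 was tested and it stayed called, against 2.69% of all genes. Hsd11b2 was higher in D21 by 3.33 (SE 0.30, interval 2.68 to 3.98, 10.1-fold, limma adjusted p = 0.000221) and Akr1c14 by 2.44 (SE 0.32, interval 1.75 to 3.14, 5.44-fold, adjusted p = 0.00157). Hsd11b1 was at least 3.79-fold higher (adjusted p = 0.0101). Srd5a1 differed by -0.44 (interval -1.42 to 0.54), Hsd17b4 by 0.29 and Sts by 0.23, and none of these was called. Slides 1 and 3 each held rats of both groups, and there Hsd11b2 differed by 2.72 and 3.76 and Akr1c14 by 2.07 and 2.97. Hsd11b1 lost its call with normexp (adjusted p = 0.186), in limma on these 6 arrays alone (adjusted p = 0.0524) and without rat 2 of the D21 group (adjusted p = 0.0525). Those fits called 1.89%, 1.46% and 2.14% of all genes. Of 10 fibroblast markers 8 were higher in the D21 depleted cells (median 2.78), as were 4 of 8 smooth muscle markers (median 1.47), and their part was not tested.

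The change with depletion itself was compared between the states as an interaction, in which each group enters once. It was called for 2 of the 6 enzymes, against 2.39% of all genes, with a median of -1.79 (-1.16 with Hsd11b1 at its bound) against -0.05. The difference between whole and depleted cells was smaller in D21 than in NP by 3.37 for Akr1c14 (interaction -3.37, SE 0.45, interval -4.36 to -2.38) and by 3.31 for Hsd11b2 (-3.31, SE 0.43, interval -4.25 to -2.38), each with a limma adjusted p of 0.00602. With normexp, which called 0.357% of all genes, the 2 values were -2.57 and -3.00 and their adjusted p 0.0539 and 0.0841. Hsd11b1 had an interaction of -3.10 (SE 0.83, adjusted p = 0.08) and Srd5a1 one of 1.91 (adjusted p = 0.142), neither of them called. Hsd11b1 was called with scan day as a block (-3.56, adjusted p = 0.0279), with quantile normalization (-3.43, adjusted p = 0.0393), with array weights (-2.35, adjusted p = 0.049) and without rat 1 of the D21 depleted group (-3.71, adjusted p = 0.0395). Srd5a1 was called with array weights (2.24, adjusted p = 0.0127) and without rat 4 of the D21 depleted group (2.25, adjusted p = 0.0377) or rat 9 of the NP whole group (2.40, adjusted p = 0.0475). Array weights called 25% of all genes and the fit without rat 4 called 15.6%. Scan day as a block and quantile normalization called 2.71% and 3.11%, and the fits without rat 1 or rat 9 called 1.28% and 2.53%. The same interaction was called for 7 of 10 fibroblast markers (median -3.00) and 5 of 9 smooth muscle markers (median -2.69), all of them lower. It was called for none of 10 epithelial markers (median 0.91) and none of 9 Mφ markers (median -0.11, or -0.10 with 4 genes at their bound). The part of these cell types in the enzymes' interactions was not tested.

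**Figure D3:**
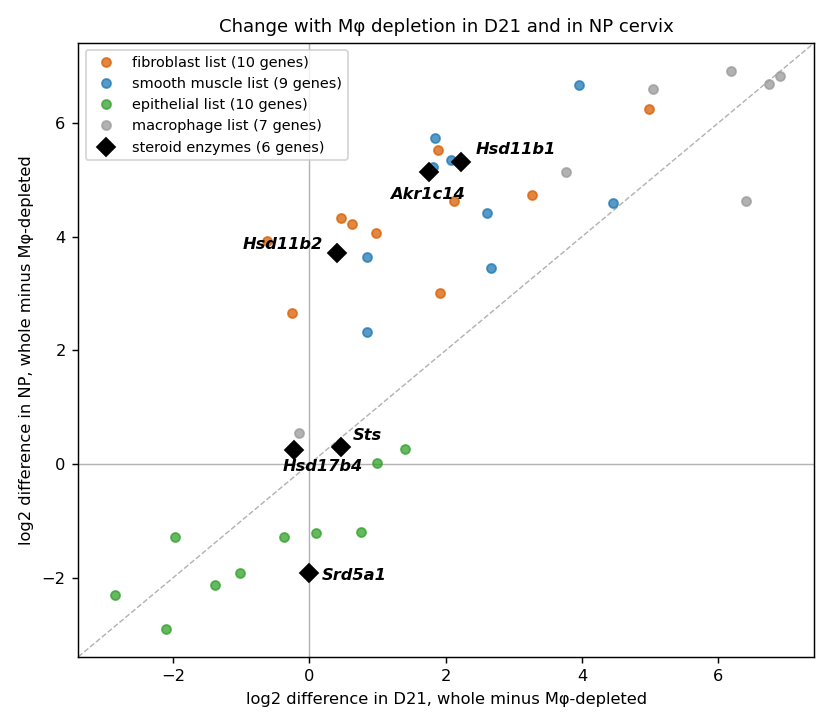
Log2 difference between whole and Mφ-depleted cells in D21 rats (horizontal) and in NP rats (vertical), for the 6 tested enzymes (diamonds) and the genes of 4 cell type lists (circles), with equal change on the dashed line. Akr1c14, Hsd11b1 and Hsd11b2 lie above the line, as do all 10 fibroblast and all 9 smooth muscle genes, 4 of 7 Mφ genes and 2 of 10 epithelial genes. Srd5a1 lies below the line, at -0.01 in D21 and -1.92 in NP.

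Across the 12 arrays, which share groups, slides and cell mix, Akr1c14 correlated with Hsd11b1 at r = 0.95 and with Hsd11b2 at 0.88, and Hsd11b1 with Hsd11b2 at 0.87. Srd5a1 ran against them, at -0.69 with Akr1c14, -0.47 with Hsd11b1 and -0.53 with Hsd11b2. Of 14478 genes compared, those closest to Akr1c14 were Casc4 and Bnc2, a zinc finger protein, both at 0.993, and a transcript with no symbol, TC592327, at 0.992. Closest to Hsd11b1 were Enpep, the aminopeptidase that cleaves angiotensin II, at 0.983, the adhesion molecule Clmp at 0.972 and the sialyltransferase St3gal2 at 0.971. Closest to Hsd11b2 were the BMP antagonist Nbl1 at 0.992, the endothelin receptor Ednra at 0.987 and the matrix proteoglycan Prelp at 0.984. Closest to Srd5a1 were Epb41l5 at 0.953, a transcript with no symbol, ENSRNOT00000004563, at 0.95 and Tpra1 at 0.949. These values describe likeness over mixed groups.

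Other enzymes of the same pathways were looked up from lists. Of 10 other reductases of progestins and androgens on the array, 2 were bright enough to test. Akr1c15, a further aldo-keto reductase, was higher in whole than in depleted cells in D21 (2.37 ± 0.26 against 0.85 ± 0.23, SD, n = 3 each, difference 1.52, limma adjusted p = 0.0232) and in NP (1.23 ± 0.34 against -0.21 ± 0.92, difference 1.44, adjusted p = 0.017). Srd5a3, a reductase best known for dolichol synthesis, was not called in any comparison.

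Of 13 other hydroxysteroid dehydrogenases, up to 9 were tested. Hsd17b1, which makes estradiol from estrone, was at least 5.31-fold higher in whole than in depleted D21 cells (adjusted p = 0.000137), where no depleted rat was well above background. In NP it was higher in whole cells by 3.24 (-1.33 ± 0.40 against -4.57 ± 0.12), with 2 of 3 depleted rats well above background. Hsdl1 was higher in D21 whole cells by 1.28 and the carbonyl reductase Cbr1 in NP whole cells by 0.79, with adjusted p of 0.0157 and 0.0395 in limma. Hsd17b1 thus had more transcript in whole cells of both states, the direction of Akr1c14 and Hsd11b1.

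Steroid synthesis was for the most part at background. Of 15 such genes on the array, 5 or 6 were tested per comparison, and Star, Cyp17a1, Hsd3b1 and Hsd3b2, the gonadal and adrenal machinery, were not among them. Tspo, a mitochondrial outer membrane protein, was lower in whole than in depleted cells by 1.11 in D21 (difference -1.11, limma adjusted p = 0.0438) and by 1.18 in NP (-1.18, adjusted p = 0.0237). Fdxr, the ferredoxin reductase that feeds electrons to mitochondrial P450 enzymes, had differences of -1.66 and -1.39. Hsd3b7, a bile acid enzyme, was higher in NP whole cells by 1.05. Cyp11b1, the 11β-hydroxylase, was at least 2.23-fold higher in D21 than in NP depleted cells (adjusted p = 0.0231), where no NP depleted rat was well above background.

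Of 15 conjugating and hydroxylating enzymes, 4 or 5 were tested. Cyp7b1, an oxysterol and steroid 7α-hydroxylase, was higher in NP whole than in NP depleted cells by 1.93 (limma adjusted p = 0.00859). The sulfotransferases Sult1b1 and Sult1c3 were lower in NP whole than in NP depleted cells, with differences of -2.12 and -2.52 and adjusted p of 0.0054 and 0.016. Sult1b1 was well above background in 1 of 3 and Sult1c3 in 2 of 3 of the NP whole rats. Sult1c3 was also at least 17.5-fold lower in D21 than in NP depleted cells, since no D21 depleted rat was well above background (adjusted p = 0.00373).

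Among the partner genes, H6pd makes the NADPH that Hsd11b1 uses in the endoplasmic reticulum, and H6pd was higher in D21 than in NP whole cells by 1.21 (1.03 ± 0.16 against -0.18 ± 0.61, limma adjusted p = 0.0437). It was lower in NP whole than in NP depleted cells, at -1.02 (adjusted p = 0.0253), the direction opposite to that of Hsd11b1. Cyb5a, an electron donor to P450 enzymes, was higher in D21 whole than in D21 depleted cells by 1.40 (adjusted p = 0.00857). Por, Cyb5r3, Papss1, Papss2, Sumf1 and Sumf2 were not called in any comparison.

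Of the nuclear receptors, Pgr, the progesterone receptor, was well above background in all 12 rats and was not called. Its levels were -0.25 ± 0.46 in D21 whole, -0.24 ± 0.91 in D21 Mφ-depleted, -0.12 ± 0.72 in NP whole and -0.91 ± 1.38 in NP Mφ-depleted cells (SD, n = 3 each). Esr1, the estrogen receptor alpha, was lower in NP whole than in NP depleted cells, at -1.24 (limma adjusted p = 0.0315). Nr3c1, the glucocorticoid receptor, was well above background in 5 of 12 rats. Whole NP cells held at least 3.92-fold more of it than depleted NP cells (adjusted p = 0.00922). Esr2 and Nr3c2 were not tested.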

How the data were processed

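Cervix RNA from 12 rats was hybridised to 12 one-colour Agilent 4x44K rat arrays. The deposited intensity per spot is the processed signal of Feature Extraction 9.5.3.1, background-subtracted and detrended by that software. The authors' normalized table holds each probe as a linear ratio to the 75th percentile of its array, a scale found here from its values; log2 of it correlated with the values computed here at 0.9964 to 0.9994, and it served as an alternative. Here control spots and outlier spots (294 to 648 of 42877 per array) were left out, spots of a probe were averaged, and log2 signal minus the log2 of the array's 75th percentile (290 to 1171 intensity units) was used. Of 30367 probes, 17328 took the RefSeq symbol of their own accession and 345 that of another listed accession (58.2% in all); the others kept the file's name. The brightest probe stood for a gene. A gene was tested where every rat of 1 or more of the groups compared was well above background, with limma 3.58.1 (R 4.3.3) over all 12 arrays with 4 group means and empirical Bayes, and p-values were Benjamini-Hochberg adjusted over all genes tested. Where a gene was not well above background in any rat of a group, the fold is a bound set against the lowest signal well above background on each of those arrays. The number of arrays limits the precision. The scripts were tested on simulated data.

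The enzymes, the lists of other pathway genes (reductases, dehydrogenases, steroid synthesis, conjugation, partner genes, nuclear receptors, glucocorticoid-responsive genes) and the marker lists (Mφ, smooth muscle, fibroblast, epithelial, endothelial, immediate-early, trophoblast and decidua, adipocyte) were chosen with earlier results of these data known. All 10 enzymes are named; of other pathway lists every called gene, up to 6 per comparison, and the receptors; for each enzyme called anywhere, the 3 genes with the highest Pearson r. A few genes of these lists are not reported here. A summed marker level is the log2 of the list's summed signal. The alternatives were normexp background correction with an offset of 50, quantile normalization, the percentile over the 12233 probes detected on all arrays, the authors' table, other background filters, the mean of a gene's probes, other limma fits, slide or scan day as a block, leaving out each rat, and the methods' t-test and threshold (p under 0.01 with a 2-fold change). The 3 rats of a group are separate animals. Each group enters several comparisons, which are therefore not independent.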

Additional observations from a re-analysis of the deposited data

Results flagged for a closer look

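For 2 enzymes the change with Mφ depletion differed between D21 and NP rats by the test of the difference itself. The interaction was -3.37 for Akr1c14 and -3.31 for Hsd11b2, each with a limma adjusted p of 0.00602, and slide as a block left -3.31 and -3.28 with an adjusted p of 0.0491 for both. With normexp neither was called, at -2.57 (adjusted p = 0.0539) and -3.00 (adjusted p = 0.0841). Of all genes, 0.378% were called with slide as a block and 0.357% with normexp, against 2.39% with neither. The summed level of 10 fibroblast markers in the same rats was 4.12 to 5.92 in NP Mφ-depleted and 8.32 to 8.89 in D21 Mφ-depleted cells, and its part in these values was not tested.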

How the results depend on the processing

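Every difference of an enzyme that was called kept its direction under all alternatives run. Over the enzymes' differences and counts, 535 of the alternative values kept their direction and side of the threshold, 29 lost a call, 17 gained one and 30 changed sign, none of the last with a call in either fit; the cause was not tested. No paired analysis was possible because every group holds different animals: no 2 groups set against each other share rat numbers, and the numbers that NP depleted and D21 whole rats share in the interaction name different rats.

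Counts of enzymes called are given here with the share of all genes called in the same fit. Between D21 and NP whole cells the count (0, 5.86%) was 2 with array weights (31.6%). It was 1 with limma at the methods' threshold (8.45%), on the arrays compared only (18.1%), or with the mean of a gene's probes (6%). Leaving out a rat gave 0 to 1 (0.627% to 7.01%). Between whole and depleted D21 cells the count (2, 22.4%) was 0 with the methods' t-test adjusted (0.0842%) or at its own threshold (4.56%). It was also 0 with normexp (2.18%), or slide (0.379%) or scan day (6.21%) as a block. With no background filter it was 1 (4.74%), and without 1 rat 1 to 2 (7.74% to 40.2%). Between depleted cells the count (3, 4.6%) was 0 with the methods' t-test adjusted (0%). With only genes well above background on every array compared, fewer enzymes were left to test. The count was then 1 between depleted cells (2.69%) and 1 between whole and depleted NP cells (27.3%, from 4 and 32.8%). For the interaction (2, 2.39%) it was 1 with that filter (1.68%), 4 with array weights (25%) and 0 with normexp (0.357%).

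Sign changes were as follows. In D21 against NP whole cells, Hsd11b1 was at -0.03 with normexp and -0.37 with slide as a block (-0.33 to 0.31 without 1 rat), Hsd11b2 at -0.01 with the percentile over detected probes, -0.04 with array weights and -0.10 with normexp (-0.05 to 0.11), and Sts at -0.25 with slide as a block (-0.26 to 0.72). In whole against depleted D21 cells, Srd5a1 was at 0.18 with the percentile over detected probes, 0.11 with array weights, 0.01 in the authors' table, 0.17 with the mean of probes, 0.17 with normexp and 0.36 by its other probe (-0.27 to 0.33 without 1 rat), and with slide as a block Hsd17b4 was at 0.24 and Sts at -0.41. In NP, Hsd17b4 was at -0.01 with normexp and Sts at -0.03 to 0.95 without 1 rat. The interaction of Sts was -0.52 with normexp and -0.59 with slide as a block (-0.48 to 0.50).

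Over all genes the methods' t-test at its own threshold called 490 genes between D21 and NP whole cells, 649 between whole and depleted D21 cells, 1421 in NP and 206 between depleted cells. After adjustment it called 0, 12, 830 and 0, where limma called 823, 3190, 4393 and 617.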

Other observations

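Of 7 glucocorticoid-responsive genes tested, Cdkn1a, a cell cycle inhibitor, was higher in D21 than in NP whole cells by 1.46 (3.91 ± 0.40 against 2.45 ± 0.40, SD, n = 3 each, limma adjusted p = 0.0244). It was lower in whole than in depleted cells of both states, with differences of -1.15 in D21 and -1.86 in NP. Errfi1, an inhibitor of the EGF receptor, was lower in D21 whole than in D21 depleted cells, at -1.65 (adjusted p = 0.0146). Fkbp5, Klf9, Mt1, Mt2A and Tsc22d3 were not called in any comparison. Immediate-early genes, 8 of 9 in D21 and 7 of 8 in NP, were lower in whole than in depleted cells, where 22.4% and 32.8% of all genes were called in either direction. Their medians were -2.83 and -2.49 (-2.03 in NP with 1 gene at its bound) against -0.06 and -0.04 over all genes.

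Against the same shares of all genes, of 10 endothelial markers 4 were higher in whole cells of D21 rats (median 0.78), and in NP 3 of 9 were higher and 1 lower (median 0.27). Of adipocyte markers 2 of 4 were higher in NP whole cells (median 2.24) and none of 3 was called in D21 (median 1.39). Such counts of so few genes were not set apart from those shares by any test.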
